A study of Mus musculus with 16 samples.

Results

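The transcription factors *Tbx5*, *Tbx4*, *Pitx1*, *Dlx1*, *Dlx2*, *Barx1*, *Lhx8*, *Msx1*, *Shox2* and *Pax9* mark position in the developing limbs and jaws. These 10 genes were chosen by name and found by symbol in a table of 25054 genes, where each symbol belonged to 1 gene. Their RNA was counted in 16 mouse osteosarcomas, which are malignant tumors of bone-forming cells. All mice had the genotype OsxCreERT2+/-;p53fl/fl;Rb1fl/fl, in which a tamoxifen-activated Cre acts in cells that express Osterix, the early osteoblast lineage. They received tamoxifen at 400 µg per g at 1 month of age, were more than 6 months old when sampled, and were of both sexes. The 8 tumors labeled KO carried Arid1afl/fl in addition, and each bore its own animal name (Massa, Medusa, Montana, Ohio, Prince, Grilka, Zelda and Oregon), so that they were taken as 8 mice. The 8 tumors labeled WT lacked that allele and came from 4 mice by their animal codes: mouse N42 gave 4 tumors, mouse N43 gave 2, and the mice N215 and N25 gave 1 apiece. Body sites were given for the WT tumors only. They were the spine and the pelvis in N43, the right pelvis, right femur, left limb and left shoulder in N42, the right hind limb in N215, and the lung in N25.

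Limbs and jaws are patterned by transcription factors that stay on in the mesenchyme of one place and off in others. *Tbx5* is the forelimb T-box factor, while its relative *Tbx4* and the homeobox factor *Pitx1* belong to the hind limb. Dlx, Msx, Barx, Lhx and Pax factors divide the jaw mesenchyme into regions and are required for teeth and palate, and *Shox2* drives growth of the proximal limb skeleton. Several of them also work outside the skeleton: *Tbx4* and *Tbx5* act in lung mesenchyme, *Pitx1* in the pituitary and oral epithelium, and *Barx1* in the stomach.

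The genes lie on 6 chromosomes and 1 pair is adjacent. On GRCm38, *Dlx1* (chr2:71528113-71533981, plus strand) and *Dlx2* (chr2:71543408-71546754, minus strand) are separated by 9426 bp. *Tbx5* lies at chr5:119832668-119885219 and *Msx1* at chr5:37820485-37824583. *Pitx1* lies at chr13:55825051-55836192 and *Barx1* at chr13:48662998-48666507. *Shox2* (chr3:66971727-66981771) and *Lhx8* (chr3:154306294-154330659) share a chromosome, *Tbx4* lies at chr11:85886422-85916097 and *Pax9* at chr12:56691767-56712822. All 10 are protein coding.

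The 250 bases before the transcription start were found in RefSeq (GRCm38.p6) for 8 of the 10 genes, all but *Tbx5* and *Pitx1*. Below are the windows of *Shox2* and *Msx1*, the most widely counted of the genes, and of *Tbx4* and *Pax9*, whose counts were concentrated in a few tumors. They run 5′ to 3′ on the gene's strand, and capitals mark CpG dinucleotides.
*Shox2*, chr3:66981772-66982021, minus strand: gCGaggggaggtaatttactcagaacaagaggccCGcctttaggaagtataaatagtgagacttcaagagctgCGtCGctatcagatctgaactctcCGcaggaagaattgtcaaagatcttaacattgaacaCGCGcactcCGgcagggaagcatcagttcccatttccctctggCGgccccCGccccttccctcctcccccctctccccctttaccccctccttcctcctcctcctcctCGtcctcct
*Msx1*, chr5:37824586-37824835, minus strand: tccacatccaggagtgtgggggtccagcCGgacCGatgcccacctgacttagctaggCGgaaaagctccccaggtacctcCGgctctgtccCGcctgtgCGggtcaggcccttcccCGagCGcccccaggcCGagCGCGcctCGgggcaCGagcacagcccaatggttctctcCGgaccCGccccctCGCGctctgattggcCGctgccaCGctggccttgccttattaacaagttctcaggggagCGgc
*Tbx4*, chr11:85896515-85896764, plus strand: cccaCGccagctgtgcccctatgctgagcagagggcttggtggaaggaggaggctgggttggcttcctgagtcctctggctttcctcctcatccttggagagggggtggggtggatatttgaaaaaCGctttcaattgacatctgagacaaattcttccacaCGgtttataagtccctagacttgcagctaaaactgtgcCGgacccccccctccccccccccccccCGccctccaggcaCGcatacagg
*Pax9*, chr12:56695221-56695470, plus strand: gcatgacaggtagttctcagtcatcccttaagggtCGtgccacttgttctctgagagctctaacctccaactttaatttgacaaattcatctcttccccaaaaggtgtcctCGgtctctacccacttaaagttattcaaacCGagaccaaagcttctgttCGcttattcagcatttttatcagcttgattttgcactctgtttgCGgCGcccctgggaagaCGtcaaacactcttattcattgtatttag
None of these windows overlaps an annotated exon, and those of *Tbx4* and *Pax9* lie inside the longer GENCODE models of these genes. The *Msx1* window holds 20 CpG dinucleotides and the *Shox2* window 11, against 7 for *Pax9* and 6 for *Tbx4*, and the median over 27025 promoters was 6. The windows of *Barx1* (40), *Dlx2* (24) and *Dlx1* (22) were richer still, and *Lhx8* had 4. All 250 bases of the *Dlx1* window lie in annotated exons of *Dlx1*. In the windows of *Lhx8* and *Barx1*, 99 and 38 bases lie in exons of the gene itself. On either strand, the homeodomain core TAATTA was in 0 of the 8 windows and in 4.9% of all promoters. The Pitx-type motif TAATCC was in 0 of 8 against 6.38%, and the T-box half-site AGGTGTGA in 0 of 8 against 1.14%. The first 2 motifs share the letters TAAT, but neither contains the other. A window without a match says only that these letters are not in it.

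Library depth set what could be seen. Total counts ran from 1109487 to 15059640 in KO and from 7806160 to 16962329 in WT. Levels are given as CPM, counts relative to the library size after TMM scaling, a factor estimated from the bulk of the genes. In the shallowest library, Massa, the scaled size was 448336 for 1109487 counts. A gene at or under 3 counts was taken as not detectable, a floor that amounted to 6.69 CPM in Massa, to 4.03 CPM in Grilka, to at most 0.839 CPM in the other KO tumors and to at most 0.340 CPM in WT. Markers of other tissues were prominent in some libraries. The summed level of 6 lung markers was 11041 CPM in Massa and 26347 CPM in the N25 lung tumor, against 0.280 to 17.3 CPM in the other 14. The 8 salivary gland markers summed to 99932 CPM in Prince, of which *Egf* gave 92849, and to between 8.79 and 381 CPM elsewhere. Skeletal muscle markers summed to 119227 CPM in Oregon and 60490 CPM in Montana, and liver markers to 1039 CPM in Zelda. The 8 osteoblast markers summed to between 446 CPM in Prince and 54485 CPM in the N42 shoulder tumor. In Prince *Col1a1* (214 CPM) and *Runx2* (191 CPM) gave most of the sum, and *Ibsp* and *Sp7*, with 2 counts each, were not detectable. *Bglap*, *Bglap2* and *Sp7* were at 0 in Massa, and *Bglap* and *Bglap2* in the N215 tumor. Whole-gene *Arid1a* counts did not separate the genotypes, at 187 ± 57.5 CPM in KO and 167 ± 31.8 CPM in WT (mean and SD, n = 8 each); counts over a whole gene do not check the loss of an exon. In bulk RNA, fewer cells of a type and less RNA per cell cannot be told apart.

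**Figure D1:**
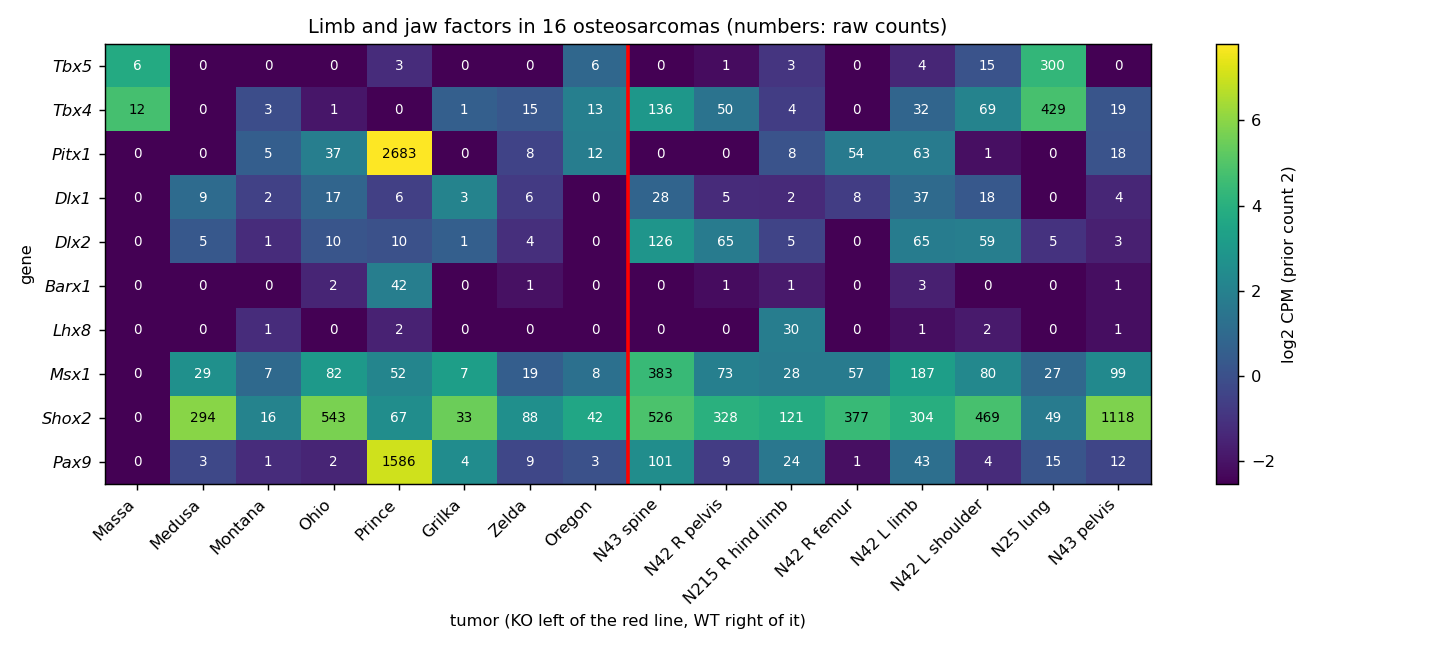
Heat map of the 10 genes (rows) in 16 tumors (columns, KO left of the red line, WT right of it). Color is log2 CPM with a prior count of 2, and the number in each cell is the raw count. *Shox2* and *Msx1* were counted in 15 of 16 tumors, while *Pitx1* and *Pax9* stand out in Prince (2683 and 1586 counts), *Tbx5* and *Tbx4* in the N25 lung tumor (300 and 429 counts), and *Lhx8* in the N215 tumor (30 counts).

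*Shox2*, the proximal limb factor, was the most abundant of the genes in most tumors. Per kilobase of exon its level was the highest of the 10 in 13 of 16 tumors, the exceptions being Massa and the N25 lung tumor, where *Tbx4* led, and Prince, where *Pitx1* led. In KO it ranged from 0 CPM (Massa) over a median of 8.86 to 62.1 CPM (Medusa). In WT it ranged from 3.16 CPM (the lung tumor) over a median of 18.7 to 56.1 CPM (the N43 pelvis tumor). The WT range lay inside the KO range, and 3 KO tumors, Medusa, Ohio and Grilka, were at 44.3 CPM or more while the other 5 were at 11.7 CPM or less. By edgeR's quasi-likelihood test the log2 fold change, KO against WT, was 0.04 ± 0.69 (SE; adjusted p = 0.982). That value changed sign when single tumors were left out, between −0.37 and 0.37. *Shox2* shares 153 bp of exon with *Rsrc1* on the opposite strand, and without a stated strand their reads there cannot be told apart. *Rsrc1* had 14 counts in Massa. There 0 counts of *Shox2* or *Msx1* allow a level of up to 6.69 CPM, so that neither was shown to be absent.

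*Msx1*, a homeobox factor of tooth and palate mesenchyme and of the limb bud tip, was counted in the same 15 tumors. In KO it ranged from 0 CPM (Massa) over 3.28 to 9.40 CPM (Grilka), and in WT from 1.74 CPM (the lung tumor) over 4.14 to 21.05 CPM (the N43 spine tumor). The spine tumor was apart from the other WT tumors, the next being the N42 left limb tumor at 9.44 CPM, and the genotypes overlapped. The edgeR log2 fold change was −0.64 ± 0.59 (adjusted p = 0.549). Across the 16 tumors *Msx1* and *Shox2* varied together (Spearman's rho 0.78), as did *Msx1* with *Dlx1* (0.77) and *Dlx2* (0.74). These correlations are descriptions over tumors that share 1 table, unequal depth and, for 6 of them, a mouse.

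*Dlx1* and *Dlx2*, the neighboring pair that acts in the upper jaw, were low everywhere. *Dlx2* had 126 counts in the N43 spine tumor (6.92 CPM), 65 in the N42 right pelvis (3.16 CPM), 65 in the N42 left limb (3.28 CPM) and 59 in the N42 left shoulder (3.48 CPM). It had at most 5 counts in the other 4 WT tumors, of which the N42 femur tumor had 0. In KO it had between 0 and 10 counts, with 1.34 CPM as the highest level. Thus 4 WT tumors lay above every KO tumor and the other 4 lay within the KO range. *Dlx1* had at most 37 counts (N42 left limb, 1.87 CPM), and its highest level, 4.03 CPM in Grilka, rested on 3 counts. Their levels had a rho of 0.69 across the 16 tumors, where the adjacent pairs *Dlx5* and *Dlx6* had 0.96 and *Dlx3* and *Dlx4* had 0.40. *Dlx1as*, which shares 335 bp of exon with *Dlx1*, was not used here. *Dlx5*, *Dlx6* and *Dlx3*, which also act in osteoblasts, had 0, 0 and 1 counts in Prince, where *Dlx1* had 6 and *Dlx2* 10.

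*Tbx4* and *Tbx5* were highest in the lung tumor. *Tbx4* was at 27.7 CPM (429 counts) there and at 26.8 CPM (12 counts) in Massa. Next came the N43 spine tumor at 7.47 CPM, the N42 left shoulder at 4.07 CPM, Oregon at 3.64 CPM and the N42 right pelvis at 2.43 CPM. It had 0 counts in Medusa, Prince and the N42 femur tumor and at most 1.62 CPM in the other 7. *Tbx5* was at 19.4 CPM (300 counts) in the lung tumor and at 13.4 CPM (6 counts) in Massa. Oregon had 6 counts (1.68 CPM), the N42 left shoulder 15 counts (0.886 CPM), and no other tumor more than 4. The pair of libraries with the highest *Tbx4* and *Tbx5* was thus the pair in which all 6 lung markers were at 156 CPM or more. Elsewhere 1 to 5 of the 6 lung markers were at 0, and *Sftpd* was at 0 in 13 of the other 14. The part of lung tissue in these levels was not tested, and the spine, shoulder and Oregon tumors held 8.96, 16.2 and 0.280 CPM of lung markers.

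Of the T-box neighbors of these genes, *Tbx3* was highest in the same libraries and *Tbx2* was not. *Tbx3*, which lies 147943 bp from *Tbx5*, was at 82.5 CPM in Massa and at 70.5 CPM in the lung tumor, above the other 14. *Tbx2*, 44473 bp from *Tbx4*, was at 95.9 and 88.3 CPM in them, within its range elsewhere of 11.6 to 184 CPM. Over the 16 tumors the rho was 0.66 for *Tbx5* with *Tbx3* and 0.39 for *Tbx4* with *Tbx2*. *Shh*, the signal of the limb bud's posterior margin and of airway epithelium, had 174 counts in the lung tumor and 5 in Massa, and at most 1 in any other tumor. *Foxf1*, a lung mesenchyme factor, was at 85.9 and 69.1 CPM in them and at most 17.3 CPM elsewhere. *Tbx3*, *Shh* and *Foxf1* were picked from the companion lists after their values were seen.

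**Figure D2:**
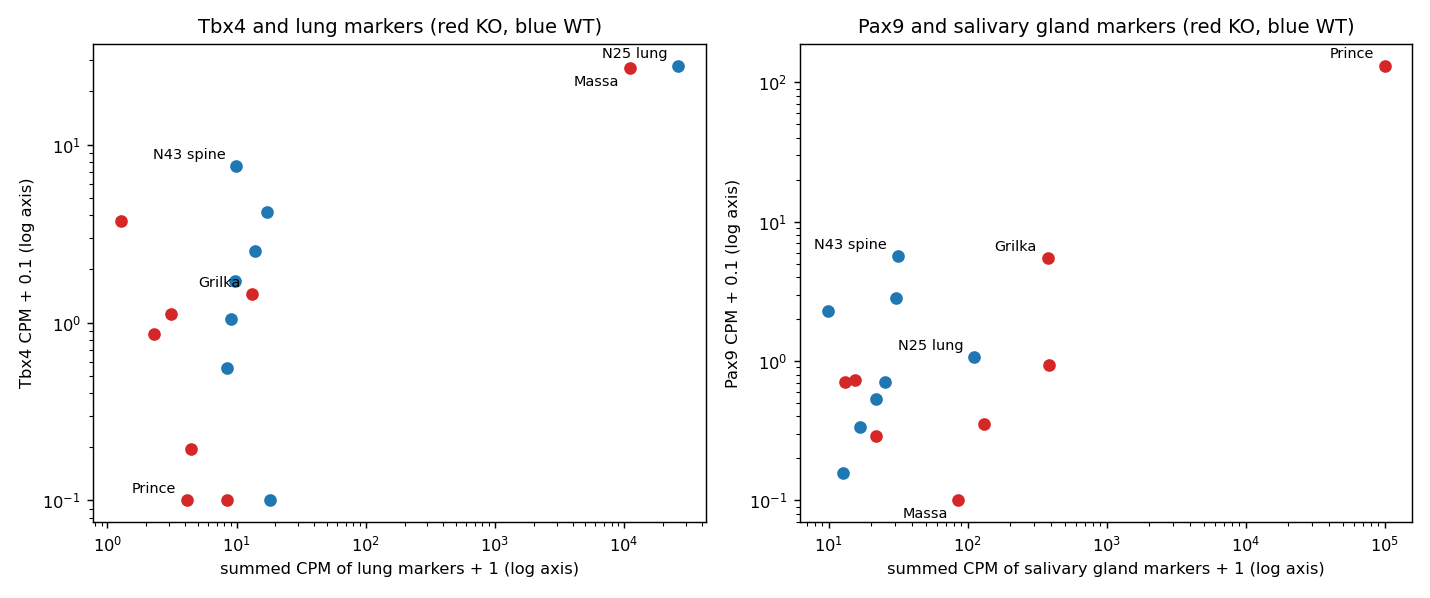
Each point is 1 tumor (red KO, blue WT). Left, *Tbx4* CPM + 0.1 against the summed CPM + 1 of 6 lung markers; right, *Pax9* CPM + 0.1 against the summed CPM + 1 of 8 salivary gland markers; all axes are logarithmic. Massa and the N25 lung tumor are alone at the right of the first panel with *Tbx4* at 26.8 and 27.7 CPM. Prince is alone at the upper right of the second with *Pax9* at 132 CPM. The relation of either gene to its marker sum among the remaining points was not tested.

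*Pitx1*, *Pax9* and *Barx1* were highest in the same KO tumor, Prince. *Pitx1* had 2683 counts there (223 CPM), against 3.53 CPM in Ohio and 3.36 CPM in Oregon as the next KO tumors. The remaining KO tumors had 1.28 CPM (Montana), 0.543 CPM (Zelda) and 0 counts (Massa, Medusa and Grilka). In WT the highest values were 3.18 CPM in the N42 left limb and 3.07 CPM in the N42 femur. Prince lay 63.1 times above the next tumor, and without it the KO range (0 to 3.53 CPM) was close to that of WT (0 to 3.18 CPM). *Pax9*, required for teeth, palate and the vertebral column, had 1586 counts in Prince (132 CPM). The next values were 5.55 CPM in the N43 spine tumor (101 counts) and 5.37 CPM in Grilka (4 counts), and all others were at 2.72 CPM or less. *Barx1*, a factor of molar tooth and stomach mesenchyme, had 42 counts in Prince (3.49 CPM) and at most 3 in any other tumor, so that it was above 3 counts in Prince alone.

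Prince held other genes of jaw and oral tissue. From the companion lists, after their values were seen, *Tfap2a* (948 counts, 78.7 CPM), *Tfap2b* (305 counts, 25.3 CPM), *Meis1* (154 CPM) and *Meis2* (166 CPM) were also highest there, and *Lmx1b* had 207 counts (17.2 CPM). Epithelial markers summed to 1369 CPM in it. Of 6 tooth markers looked for by symbol, 2 were in the table, and *Amelx*, *Ambn*, *Enam* and *Dspp* were not. No gene in the table had a total under 6 counts over all tumors, so the missing markers may have had few or no counts. Why they are missing is not known. *Odam* had 193 counts and *Amtn* 9 in Prince, and both had 0 in the other 15 tumors. All 8 salivary gland markers were at 195 CPM or more in Prince. In the other 15 tumors 1 to 6 of the 8 were at 0; *Smr3a* was at 0 in 14 of them. The part of salivary or oral tissue in the *Pitx1*, *Pax9* and *Barx1* levels was not tested. The label of Prince gives no site, and none was assigned to it.

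The exons of *Pitx1* overlap 2 noncoding genes, *Gm47071* (165 bp shared, opposite strand) and *Gm28760* (108 bp shared, same strand). *Gm28760* had 64 counts in Prince and 0 in every other tumor. *Gm47071* had 143 counts in Prince and at most 12 elsewhere. Both are small beside the 2683 counts of *Pitx1*. *Pax9* shares 189 bp of exon with *Slc25a21* on the opposite strand, which had 71 counts in Prince and 256 in Zelda, where *Pax9* had 9.

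*Lhx8*, a LIM homeobox factor of tooth and palate mesenchyme, was above 3 counts in 1 tumor. It had 30 counts in the N215 right hind limb tumor (3.40 CPM) and at most 2 in the other 15. *Lhx6* (21.1 CPM), *Lmx1b* (32.4 CPM) and *Sall4* (11.2 CPM) were highest in the same tumor, again picked after their values were seen. Of the 21 jaw companions in the table, 5 were highest in N215, 4 in Grilka and 3 in Prince. The N215 tumor had none of the 2 tooth markers and 29.4 CPM of salivary gland markers.

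The order of the 10 genes by level was set per kilobase of exon, using the median over the tumors of each genotype. In WT it was *Shox2* (5.64 CPM per kb), *Msx1* (1.34), *Dlx2* (0.653), *Tbx4* (0.595), *Pitx1* (0.181), *Pax9* (0.155), *Dlx1* (0.0646), *Tbx5* (0.0268), *Barx1* (0.0174) and *Lhx8* (0.00990). *Shox2* was above *Msx1*, and *Msx1* above *Dlx2*, in 8 of 8 WT tumors. Below *Dlx2* each neighbor exceeded the next in 2 to 6 of 8 tumors, so the order there is not set beyond the spread. In KO the order began with *Shox2* (2.67 CPM per kb), *Msx1* (1.06), *Pitx1* (0.342) and *Tbx4* (0.262). *Shox2* exceeded *Msx1* in 7 of 8 KO tumors, both being at 0 in Massa, and *Msx1* exceeded *Pitx1* in 5 of 8. The medians of *Tbx5*, *Barx1* and *Lhx8* were 0 in KO. The range of every gene overlapped that of the next in both genotypes.

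The study compared tumors with and without floxed *Arid1a*. None of the 10 genes was called between KO and WT. Of the 4 that passed the filter on low counts, 0 had an adjusted p under 0.05 by edgeR, where 618 of 15413 genes did (4.01%), 287 higher (1.86%) and 331 lower (2.15%) in KO. At an unadjusted p under 0.05, 1 of the 4 was past the threshold, with 23% of all genes, while DESeq2 called 0 of the 8 to which it gave an adjusted p (all but *Barx1* and *Lhx8*; 12.5% of all genes were called) and limma-voom 0 of 4 (0.11%). That 1 gene was *Pitx1*, with a log2 fold change of 4.86 ± 1.62 (adjusted p = 0.0888), and without Prince the estimate was 0.55 ± 1.09 (adjusted p = 0.82). DESeq2, which replaced the Prince count as an outlier, gave 0.41 ± 1.27. *Tbx4* was at −1.07 ± 1.35 (adjusted p = 0.681), at 0.07 without the lung tumor and at −2.67 without Massa. In a fit of all genes without the filter, none of the 6 others was called, where 2.71% of all genes were. The log2 fold changes were 3.44 ± 1.35 for *Pax9*, 3.39 ± 1.13 for *Barx1*, 0.48 ± 0.89 for *Dlx1*, −1.95 ± 0.97 for *Dlx2*, −1.34 ± 1.81 for *Tbx5* and −2.58 ± 1.53 for *Lhx8*. Their adjusted p lay between 0.0904 (*Barx1*) and 0.793 (*Dlx1*). *Pax9* and *Barx1* rest on Prince, *Tbx5* on the lung tumor and *Lhx8* on N215: DESeq2 replaced these counts, and for *Pax9* also that of the N43 spine tumor, and gave −0.17 for *Pax9* and 3.19 for *Tbx5*. These p-values treat the WT tumors of a mouse as independent. With counts summed per mouse 10 of 16007 genes were called (0.0625%), and 0 of the 5 limb and jaw factors that passed the filter. Among the genes tested, 0.415% had groups that did not overlap, and none of the 10 genes did.

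**Figure D3:**
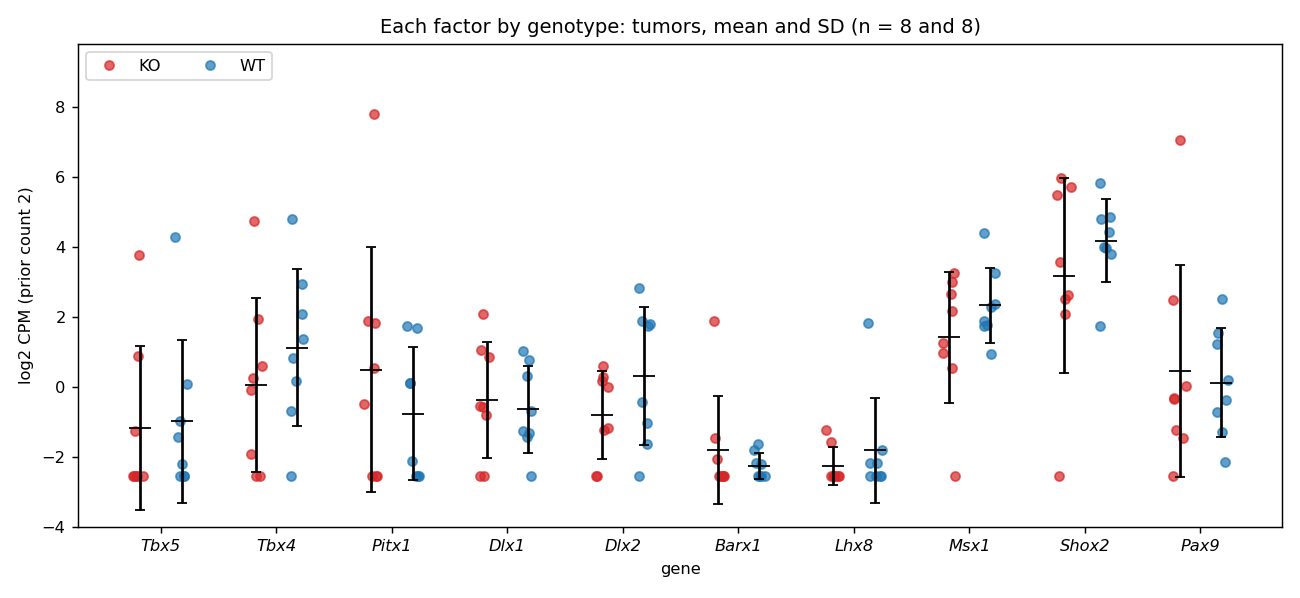
Log2 CPM (prior count 2) of each gene in KO (red) and WT (blue). Points are tumors, and bars give the mean and SD (n = 8 and 8). The genotypes overlap for every gene, with Prince far above the rest for *Pitx1* and *Pax9*; the lowest position, near −2.6, is a count of 0.

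*Pitx1* and *Tbx4* differed between tumors more than most genes of their abundance, while *Msx1* lay just below the trend. The biological coefficient of variation, the spread between tumors of a genotype beyond counting error, was 213% for *Pitx1*, where the trend at its level was 71.3%. It was 165% for *Tbx4* (trend 80.2%), 91.6% for *Shox2* (67.4%) and 75.8% for *Msx1* (80.1%), with a median of 55.1% over all genes tested. Ranked by the ratio to the trend, *Pitx1* stood at the 99.8th percentile of genes, *Tbx4* at the 97.8th, *Shox2* at the 88.0th and *Msx1* at the 67.4th. A single tumor carried 93.0% of the summed *Pitx1* CPM over the 16 (Prince), 86.4% for *Pax9*, 84.9% for *Barx1* and 84.2% for *Lhx8*. The shares were 16.9% for *Shox2* and 24.8% for *Msx1*.

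The site labels of the WT tumors allow a comparison of 4 tumors of the hind limb and pelvis (N215 right hind limb, N42 right femur, N42 right pelvis, N43 pelvis) with 3 of the spine, shoulder and lung. The N42 left limb tumor was left out because its label names no fore or hind limb. *Pitx1*, the hind limb factor, had 54 counts in the femur tumor (3.07 CPM), 8 in the N215 hind limb (0.907 CPM), 18 in the N43 pelvis (0.902 CPM) and 0 in the N42 pelvis. It had 1 count in the shoulder tumor and 0 in the spine and lung tumors. So 3 of the 4 hind limb and pelvis tumors were above 3 counts and none of the other 3 was, with the N42 pelvis tumor overlapping them. The summed counts were 80 against 1, a ratio of 60.5 per scaled library (95% interval 10.6 to 2420, exact, counting error only). Of the 80 counts 54 were in the femur tumor, and the interval leaves out the spread between tumors. With tumors as the units, the *Pitx1* difference had an exact permutation p of 0.143 over 35 splits. The left limb tumor had 63 counts (3.18 CPM), the highest WT value. In N42 the femur and left limb tumors had 54 and 63 counts, and the pelvis and shoulder tumors had 0 and 1.

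*Tbx4*, the other hind limb factor, went the opposite way. It had 50 counts in the N42 pelvis (2.43 CPM), 19 in the N43 pelvis (0.953 CPM), 4 in the N215 hind limb (0.454 CPM) and 0 in the femur tumor, against 136 in the spine (7.47 CPM), 69 in the shoulder (4.07 CPM) and 429 in the lung (27.7 CPM). All 4 hind limb and pelvis tumors were thus below all 3 others, a separation in either direction that 3.05% of 24764 genes had. The log2 difference was −3.70 (two-sided exact permutation test over 35 splits, p = 0.0571, where the smallest possible p is 0.0286). The 7 tumors came from 4 mice, and the exact tests between sites treat them as independent. *Tbx5*, the forelimb factor, had 300 counts in the lung, 15 in the shoulder and 0 in the spine tumor, and between 0 and 3 in the hind limb and pelvis tumors (exact permutation p = 0.171). Of the WT tumors other than the lung tumor, the shoulder tumor had the most *Tbx5*.

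No gene was called in this contrast by edgeR, 0 of 17371 genes (0%), and 589 genes (3.39%) had an unadjusted p under 0.05. Of the 10 genes 6 passed the filter, and 2 had an unadjusted p under 0.05: *Pitx1* with a log2 fold change of 5.48 ± 1.78 and *Tbx4* with −3.74 ± 1.24, both with an adjusted p of 1.00 in edgeR. The *Pitx1* estimate rests on a group with 1 count in all. DESeq2 called 5 genes of 23412 (0.0214%) and 0 of the 10. With the mouse as a block, which leaves the contrasts within N42 and within N43, the estimates were 5.09 ± 2.42 for *Pitx1* and −2.24 ± 1.34 for *Tbx4*, neither with an unadjusted p under 0.05. The log2 fold changes of *Dlx2* (−1.84), *Pax9* (−1.32), *Msx1* (−1.29) and *Shox2* (0.43) did not reach an unadjusted p under 0.05. *Tbx5*, which did not pass the filter, was at −6.40 ± 2.15 in the edgeR fit without it (adjusted p = 0.881), with 300 of the 315 counts of its group in the lung tumor. With the lung tumor left out, *Tbx4* was at −2.56 ± 1.22, *Pitx1* at 5.07 ± 2.12, *Msx1* at −1.80 ± 0.58 and *Dlx1* at −2.19 ± 0.57, with an adjusted p of 0.999 for each in edgeR.

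*Hoxc10* and *Hoxc11*, Hox genes of the lumbosacral and hind limb region, were read beside *Pitx1* and *Tbx4*. *Hoxc10* was between 11.4 and 15.8 CPM in the 4 hind limb and pelvis tumors and at 6.43 CPM in the spine, 0.645 CPM in the lung and 0.118 CPM in the shoulder tumor. *Hoxc11* was between 2.10 and 4.42 CPM in the former and between 0 and 0.194 CPM in the latter. Neither overlapped between the groups (exact permutation p = 0.0286 for each, the smallest possible, with the shared mice ignored), a separation that 3.05% of 24764 genes had. Both genes were chosen with earlier results of these data known, so these p-values are descriptions. The N42 left limb tumor had 9.09 CPM of *Hoxc10* and 3.33 CPM of *Hoxc11*. DESeq2 called *Hoxc11* (log2 fold change 5.48, adjusted p = 2.89e-05), while in edgeR it was at 5.34 ± 0.89 (adjusted p = 1.00). The N42 pelvis tumor, without a *Pitx1* count, had 14.97 CPM of *Hoxc10* and 4.38 CPM of *Hoxc11*. In KO, Prince had 0 counts of both Hox genes beside its 2683 counts of *Pitx1*, while Oregon (63.2 CPM) and Ohio (11.4 CPM) had the highest *Hoxc10* and the next highest *Pitx1*.

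**Figure D4:**
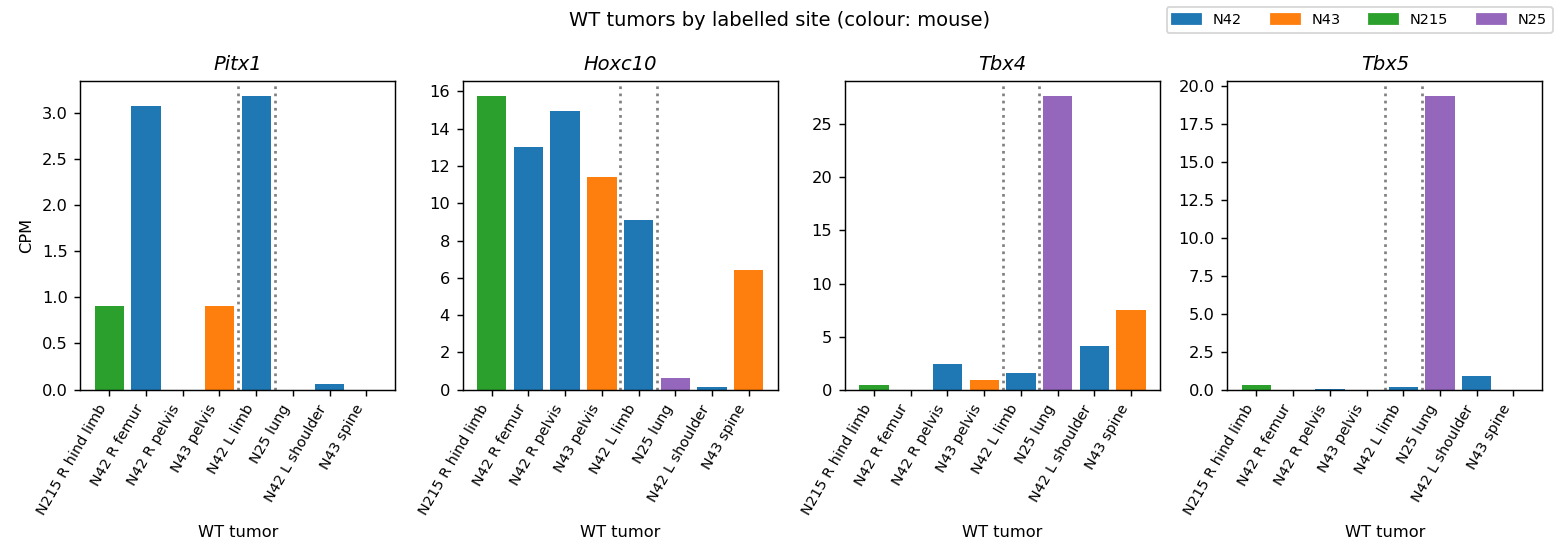
CPM of *Pitx1*, *Hoxc10*, *Tbx4* and *Tbx5* in each WT tumor, colored by mouse. The dotted lines set off the 4 hind limb and pelvis tumors (left), the left limb tumor and the lung, shoulder and spine tumors (right). *Hoxc10* separates left from right, *Pitx1* is highest in the femur and left limb tumors (3.07 and 3.18 CPM) and absent from the counts of the N42 pelvis tumor, and *Tbx4* and *Tbx5* are highest in the lung tumor (27.7 and 19.4 CPM).

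Other limb and jaw genes were read as companion lists. Of 21 limb genes 19 were in the table and 13 were tested between KO and WT; 0 were called, 3 estimates were positive and 10 negative, and the median log2 fold change was −0.31 against 0.10 over all genes tested. Of 22 jaw genes 21 were in the table and 14 were tested; 0 were called, 4 estimates were positive and 10 negative, and the median was −0.69. At an unadjusted p under 0.05 in edgeR there were 1 limb and 2 jaw genes. Over all genes tested between KO and WT, 4.01% were called and 23% had an unadjusted p under 0.05. The summed osteoblast markers had a median of 4595 CPM in KO (446 to 41946) and 37223 CPM in WT (1842 to 54485), and their part in these lists and in *Prrx1* was not tested. Among the 3 most abundant limb genes, *Prrx1*, a factor of limb and face mesenchyme, averaged 285 CPM, *Tbx2* 80.9 CPM and *Gli3* 52.3 CPM. The edgeR log2 fold change of *Prrx1* was −2.002 ± 0.56 (adjusted p = 0.0531). Its adjusted p was between 0.00718 and 0.632 over 25 settings, 0.00718 being that of DESeq2. It was 0.0234 without the lung tumor, 0.0386 without Zelda and 0.0389 without the N215 tumor. Where the shared mice were considered the gene was not called: the estimate was −1.51 with counts summed per mouse (edgeR adjusted p = 0.632), −1.42 with the mouse as a random effect in limma-voom (adjusted p = 0.576) and −1.60 without the tumors of N42 (edgeR adjusted p = 0.61). Among the abundant jaw genes, *Alx4*, a homeobox factor of face and limb mesenchyme, averaged 35.2 CPM. Between the WT sites 15 limb genes and 17 jaw genes were tested in edgeR. Of either list 0 were called, with 2 and 3 at an unadjusted p under 0.05. Over all genes tested between the sites, 0% were called and 3.39% had an unadjusted p under 0.05. DESeq2 called the jaw gene *Alx1*, picked after its values were seen, which was between 2.21 and 11.6 CPM in the hind limb and pelvis tumors and between 0 and 0.323 CPM in the others (log2 fold change 5.68, adjusted p = 0.0156).

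Genes with the most similar pattern were found by Spearman's rho over the 16 tumors among 15413 genes, for the 4 genes that passed the filter. They were *Pth1r* (0.94) and *Gm7497* (0.93) for *Shox2*, *Pias3* (0.89) and *Ranbp17* (0.87) for *Msx1*, *Vegfd* (0.84) and *Ids* (0.82) for *Tbx4*, and *Ciapin1* (0.92) and *Gpr89* (0.91) for *Pitx1*. Among the members, *Pitx1* and *Barx1* had a rho of 0.64 and *Tbx5* and *Tbx4* one of 0.61, below that of *Msx1* and *Shox2* (0.78). *Barx1* was above 3 counts in 1 of the 16 tumors and *Tbx5* in 5, so these ranks rest largely on counts of 3 or fewer. The genes outside the members were picked as the most alike of many, over tumors of unequal depth. All these values are given as descriptions.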

How the data were processed

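Total RNA from 16 tumors was depleted of ribosomal RNA and sequenced for 50 cycles. The authors aligned the reads with Novoalign 2.08.01 to mm10 and Ensembl splice junctions, kept the best alignment of each read, and counted reads per gene with USeq. The deposited values are raw counts per gene, whole numbers without normalization. Strand is not given in the sources used here. All 16 columns were mapped to labels. The authors' DESeq2 1.26.0 results were not used.

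Counts were fitted with edgeR 4.0.16 in R 4.3.3 (TMM, filterByExpr at min.count 10 and min.total.count 15, glmQLFit, glmQLFTest, two-sided, Benjamini-Hochberg at 0.05), without covariates, as 8 KO against 8 WT and as 4 against 3 WT sites. DESeq2 1.42.0, limma 3.58.1 (voom, mouse as random effect), sums per mouse, a mouse block, RLE scaling, no filter and omission of tumors were alternatives. Log2 CPM used a prior count of 2. Coordinates and exon lengths are from GENCODE vM21 (GRCm38). Totals were 1109487 to 16962329 per tumor. A floor is 3 counts, and floors and intervals cover counting error only. No libraries were duplicates within sampling noise. On simulated data for KO against WT (15235 genes), edgeR found 55 of 99 genes changed by a log2 of 2 and 92 of 99 changed by 4, with 11 false calls; for the sites (16931 genes) it found 19 of 100 and 69 of 97, with 7 false. DESeq2 found 76 of 99 and 97 of 99 with 53 false calls, and for the sites 56 of 100 and 97 of 97 with 88 false. The simulated tumors were drawn as independent, while several WT tumors share a mouse. These counts of found and false genes therefore do not cover the effect of shared mice.

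The genes named are the 10 members, *Hoxc10*, *Hoxc11*, companion genes past the threshold or otherwise the 3 most abundant of each list, and the 2 most alike genes per member tested; others are said to be picked after their values were seen. Some companion genes that this rule names are not reported here. Members and lists were chosen with earlier results of these data known. Python 3.11.15 with numpy 2.4.6, pandas 2.3.3 and matplotlib 3.10.9 made the summaries and figures.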

Additional observations from a re-analysis of the deposited data

Results flagged for a closer look

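Among 30 groups of values, 1 per gene and group of 4 to 8 tumors, 7 had a highest or lowest tumor whose gap to its neighbor was too large a part of the range on the log2 CPM scale by Dixon's criterion. For independent, normally distributed values about 1 in 20 groups would be flagged. That rate is no baseline here, because many values are tied at a count of 0 and the hind limb and pelvis tumors are also WT tumors. *Pitx1* (222.704 CPM, 2683 counts) and *Barx1* (3.49 CPM, 42 counts) were high in Prince among KO tumors. *Tbx5* was high in the lung tumor among WT tumors (19.4 CPM, 300 counts). *Lhx8* was high in the N215 right hind limb tumor among all WT tumors and among the 4 hind limb and pelvis tumors (3.40 CPM, 30 counts). *Msx1* and *Shox2* were low in Massa among KO tumors, each with 0 CPM and 0 counts in the library with the lowest total.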

How the results depend on the processing

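None of the 10 genes was called in either comparison under any of the 25 settings for KO against WT or the 15 settings for the WT sites. Genes removed by the low-count filter could not be called. Of the 10, 4 to 10 were fitted per setting between genotypes and 5 to 10 between sites. For KO against WT the number of genes called over the whole table was 618 and moved to 2517 with DESeq2, 17 with limma-voom, 10 with counts summed per mouse and 8 without the tumors of mouse N42; leaving out 1 tumor at a time gave 252 (without the N42 shoulder tumor) to 1348 (without Zelda), with over 1.5 times fewer or more also without Massa (964), Oregon (329) or the N42 right pelvis (267), N42 femur (280), N43 spine (296), N42 left limb (329) or N43 pelvis (371) tumor. For the sites DESeq2 called 5 genes where edgeR called 0. *Tbx4*, KO against WT, reversed to 0.072 without the lung tumor (−2.67 to 0.072 over single omissions). *Shox2*, at 0.04, reversed to −0.29 with limma-voom, −0.021 without the filter, −0.13 without the lung tumor and −0.089 without N42, and ran from −0.37 to 0.37 over single omissions. Between sites *Shox2* reversed to −0.087 without the lung tumor (−0.22 to 0.79 over single omissions), and without the spine tumor *Msx1* reached 0.20 (lowest −1.80) and *Pax9* 0.57 (lowest −2.58). *Pitx1* ran from 0.55 (without Prince) to 5.38 between genotypes. It was tested in 4 of the 7 single omissions between sites, reaching 7.36, and was at 0.53 with the left limb tumor added to the spine, shoulder and lung. The causes were not tested. No paired analysis was possible because KO and WT share no mice. Counts of 3 or fewer in Massa and Grilka limit what could be seen of low genes there.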
